A study of Danio rerio with 10 samples.

Results

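The genes described here encode the myosins, troponins and tropomyosins of the sarcomere, together with their nonmuscle relatives and the kinases that act on myosin light chains. They were chosen by symbol, taking every gene of the 96 hpf Ensembl table whose name begins as a myosin heavy chain (myh, smyhc, vmhc, amhc), a myosin light chain or its kinase (myl), a troponin (tnnc, tnni, tnnt) or a tropomyosin (tpm). The choice used no measured value, and it gave 67 of the 18910 genes listed at that age. They comprise 21 myosin heavy chains, 15 myosin light chains, 20 troponins, 5 tropomyosins and 6 myosin light chain kinases. By tissue, 20 are fast skeletal muscle genes, 9 slow skeletal, 6 cardiac and 2 slow or cardiac troponin I genes. A further 10 are nonmuscle or smooth muscle genes and, like the kinases, are not parts of the sarcomere. The rest are 3 MYH7B-type heavy chains, 6 genes named after human genes and given no tissue class, and the tropomyosins, kept as a class of their own. Those 6 are MYL4, MYL3, MYL2 (2 of 2), myl2, TNNC2 (2 of 2) and TNNT2 (2 of 2). Other genes with human names, such as MYH9 (1 of 2) and MYLK4 (1 of 2), were classed by that name.

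The study sequenced RNA of whole zebrafish of the AB line, pooled by library, at 2 ages. Animals exposed to benzo[a]pyrene (BaP, 50 µg/L), a polycyclic aromatic hydrocarbon that activates the aryl hydrocarbon receptor, were set against controls that the labels describe only by a volume of 0.1 mL/L. At 96 hours post fertilization (hpf), when the fish are larvae, there were 2 BaP and 2 control libraries, and at 3.3 hpf, when they are early embryos, 3 of each. The labels do not say whether libraries of a group came from separate clutches, so p-values measure only the spread between these libraries, which may be technical.

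A sarcomere pulls actin-based thin filaments past thick filaments of myosin. Each myosin is a pair of heavy chains, which carry the motor, with an essential and a regulatory light chain bound to each neck. Troponin C binds calcium, troponin I holds the thin filament switched off, and troponin T ties both to tropomyosin, which lies along actin. Fast, slow and cardiac muscle use different genes for most of these parts, and in zebrafish larvae the bulk of the trunk is fast muscle with a thin superficial layer of slow fibres. Nonmuscle myosins and some tropomyosins serve cell division and cell shape in all cells, eggs included.

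Values are CPM, counts per 1000000 of the reads assigned to listed genes, rescaled between libraries of an age by TMM factors between 0.941 and 1.07. They are not divided by gene length, and gene lengths were not used here, so the level of 1 gene is not compared with that of another. Depth, estimated from the size of the steps between low values, in units of 1000000 reads was 13.2 to 17.7 at 96 hpf and 17.5 to 22.2 at 3.3 hpf. Every listed gene exceeded 1 CPM, in 2 or more libraries of the larval table and in 3 or more of the embryo table, so genes below that are not analysed here.

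In larvae the 67 genes took 6.89% and 6.02% of the listed reads in the BaP libraries, against 6.43% and 6.64% in the control libraries. The groups overlapped. In whole animals a smaller number of muscle cells and less RNA per muscle cell cannot be told apart. The fast class held most of these reads, with 91.7% and 90.1% of them in BaP larvae and 91.2% and 91.0% in controls. Slow genes held 3.11% and 3.58% in BaP larvae, against 3.21% and 3.26% in controls. Cardiac genes held 0.296% and 0.349% in BaP larvae, against 0.382% and 0.343% in controls. The 6 genes given no tissue class held 0.723% and 0.852% in BaP larvae, against 0.717% and 0.731% in controls. Tropomyosins took 2.28% and 2.85% in BaP larvae and 2.53% and 2.49% in controls. These are shares of reads, in which a long transcript counts for more than a short one.

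**Figure D1:**
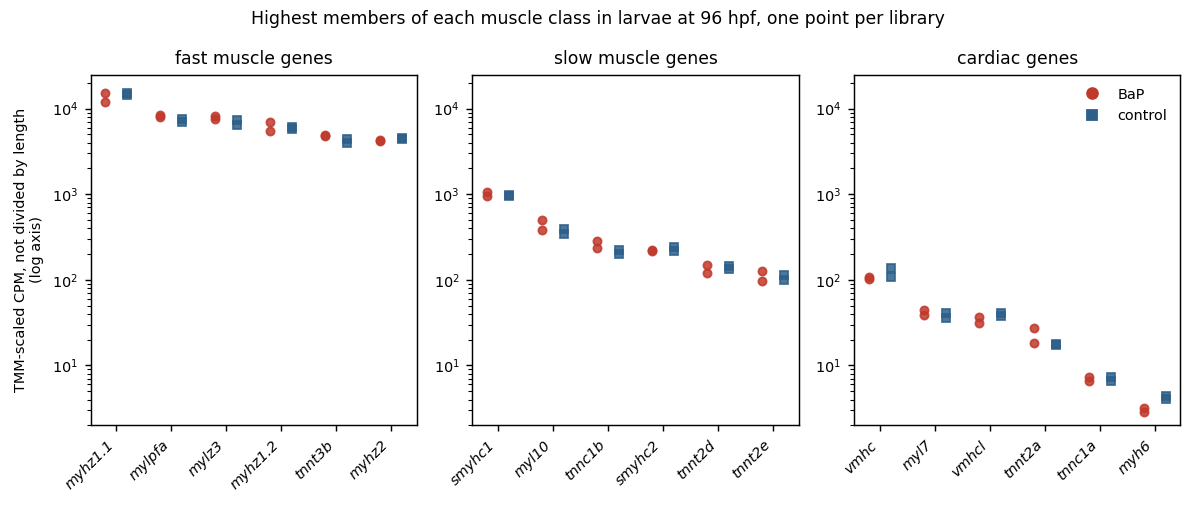
TMM-scaled CPM at 96 hpf (log axis, not divided by length) of the 6 members with the highest mean in the fast, slow and cardiac classes, with BaP libraries as red circles left of control libraries as blue squares (2 each). BaP and control points of a gene lie close together. They overlap for myhz1.1, smyhc1 and myl7 among others, and do not for mylpfa, vmhc and myh6 among others. Groups did not overlap in 50.4% of all genes.

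No member passed the test for a difference between BaP and control larvae. The test was limma on log2(TMM-scaled CPM + 0.5) over all 18910 genes with Benjamini-Hochberg adjustment, at an adjusted p under 0.05, and it called 80 genes, 0.423% of all tested. The smallest limma adjusted p among the members was 0.217, for MYL3. At an unadjusted p under 0.05 there were 7 of 67 members, where 15.8% of all genes reached that level. Of these, 3 were higher in BaP larvae, against 7.41% of all genes, and 4 were lower, against 8.35%. The 2 BaP libraries lay wholly above or below both controls for 37 of the 67, against 50.4% of all genes. The median log2 difference (BaP minus control) was 0.04 over the members and 0.02 over all genes. Leaving out BaP replicate 1 brought 8 members past the threshold, in a fit that called 17.0% of all genes and in which the lone BaP library is assumed to vary like the controls. Those 8 were MYH9 (1 of 2), myhc4, tnni1al, myl9a, tnnt2a, MYL3 and 2 MYH7B genes, MYH7B (1 of 3) and MYH7B (3 of 3).

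Most myosin heavy chains had a negative difference and most light chains a positive one. Of the 21 heavy chains, 3 had a positive log2 difference and 18 a negative one (52.2% of all genes were positive), with a median of -0.23, and in 14 both BaP libraries were below both controls, against 24.3% of all genes. Of the 15 light chains, 13 had a positive difference, with a median of 0.21, and in 10 both BaP libraries were above both controls, against 26.0% of all genes. Troponins had a positive difference in 14 of 20 (median 0.12), tropomyosins in 4 of 5 (median 0.05) and light chain kinases in 2 of 6 (median -0.05). On CPM as deposited, without TMM scaling, the heavy chain median was -0.32 and the light chain median 0.12. There the troponin median was 0.03, with 11 of 20 positive, the tropomyosin median was -0.04, with 1 of 5 positive, and the median of all genes was -0.07. In the RefSeq table, which holds 47 members, the heavy chain median was -0.13. That median leaves out myhb, myh10, myh14 and other heavy chains, so it is not set against -0.23 on the same genes. These counts describe genes that share libraries and, in part, sequence, and no test was made of a group as a whole. As gene lengths were not used, whether the differences follow transcript length was not tested.

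**Figure D2:**
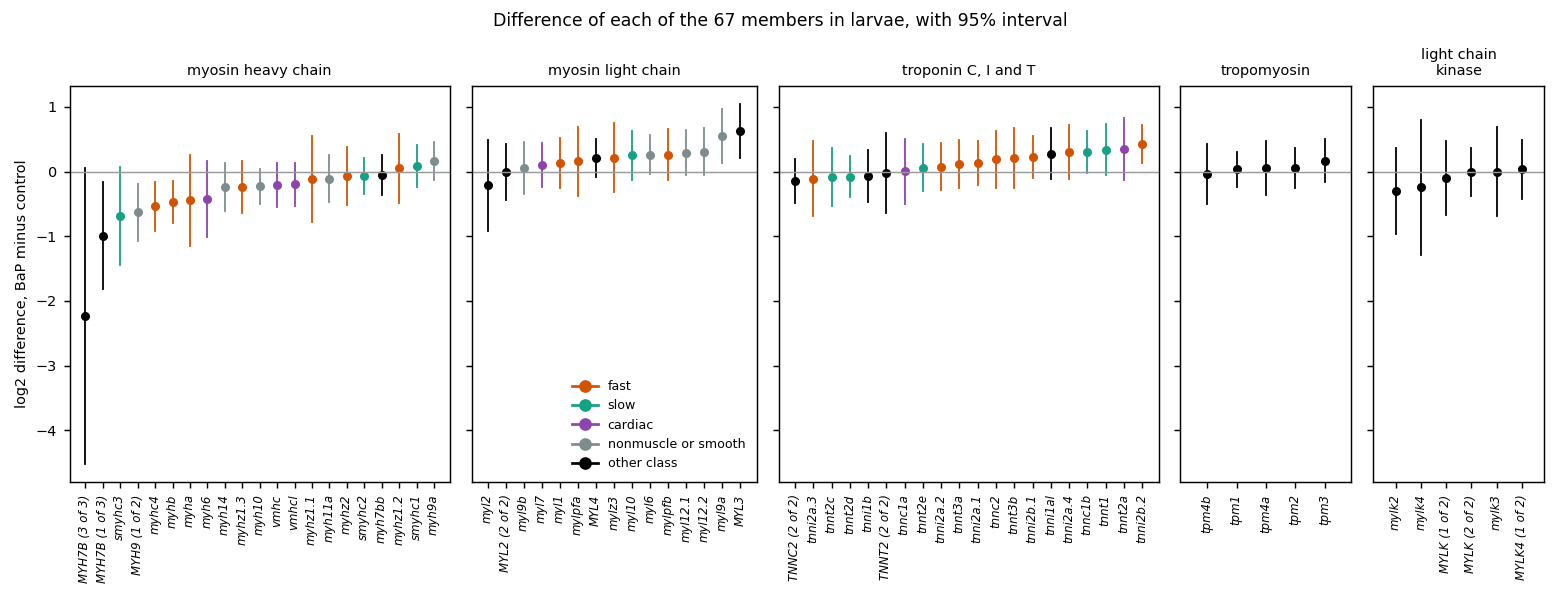
Log2 difference, BaP minus control larvae, of each of the 67 members (point) with its 95% interval (line), grouped by protein and coloured by class. Of the 21 heavy chains 18 lie below 0 and of the 15 light chains 13 lie above it, and no member passed the test over all genes.

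Within the fast, the cardiac and the nonmuscle or smooth muscle class too, heavy chains were mostly negative and the other parts mostly positive. Among fast genes 1 of 7 heavy chains had a positive difference (median -0.24), against 12 of 13 light chains and troponins (median 0.19). Among cardiac genes it was 0 of 3 heavy chains (median -0.21) and all 3 others (median 0.10), 1 of which, tnnc1a, stood at 0.00. On CPM as deposited and without BaP replicate 2 it was 2 of those 3, with medians of 0.01 and 0.00. Among nonmuscle and smooth muscle genes it was 1 of 5 heavy chains (median -0.23) and all 5 light chains (median 0.29). The gap was smaller among slow genes, with 1 of 3 heavy chains (median -0.07) and 4 of 6 others (median 0.15). Taken by class with heavy and light parts mixed, the medians were 0.12 for fast, 0.06 for slow and -0.10 for cardiac genes. On CPM as deposited they were 0.03 for fast, -0.04 for slow and -0.19 for cardiac genes. With each library left out in turn the fast median ranged from 0.06 (without control replicate 2) to 0.18 (without control replicate 1). The slow median ranged from -0.09 (without BaP replicate 2) to 0.10 (without control replicate 2), and the cardiac one from -0.13 (without BaP replicate 2) to -0.02 (without BaP replicate 1).

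By library, the median heavy chain lay 0.07 and 0.15 below its mean over the 4 libraries in BaP replicates 1 and 2 (log2 deviations of -0.07 and -0.15), and at 0.10 and 0.14 in control replicates 1 and 2. The median light chain lay at 0.04 and 0.21 in the BaP replicates and at -0.04 and -0.16 in the controls. BaP replicate 2 was the farther of the BaP libraries in both, and control replicate 2 the farther control. Leaving out each library in turn gave heavy chain medians between -0.30 and -0.18 and light chain medians between 0.13 and 0.28. Without BaP replicate 2 the troponin median was 0.02, with 11 of 20 positive, and the tropomyosin median -0.01, with 2 of 5 positive, while without BaP replicate 1 the tropomyosin median was 0.25. Genes of the exocrine pancreas, another organ of the pooled animals, also differed between these libraries. All 17 measured of a list of 21, chosen with earlier results of these data known, had a positive difference, against 52.2% of all genes. The median deviations were 0.27 and 0.60 in the BaP libraries and -0.52 and -0.32 in the controls. Their summed CPM was 2722 and 3434 in BaP larvae, against 1594 and 1835 in controls. Neither the part of organ makeup nor that of transcript length in the muscle gene differences was tested.

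**Figure D3:**
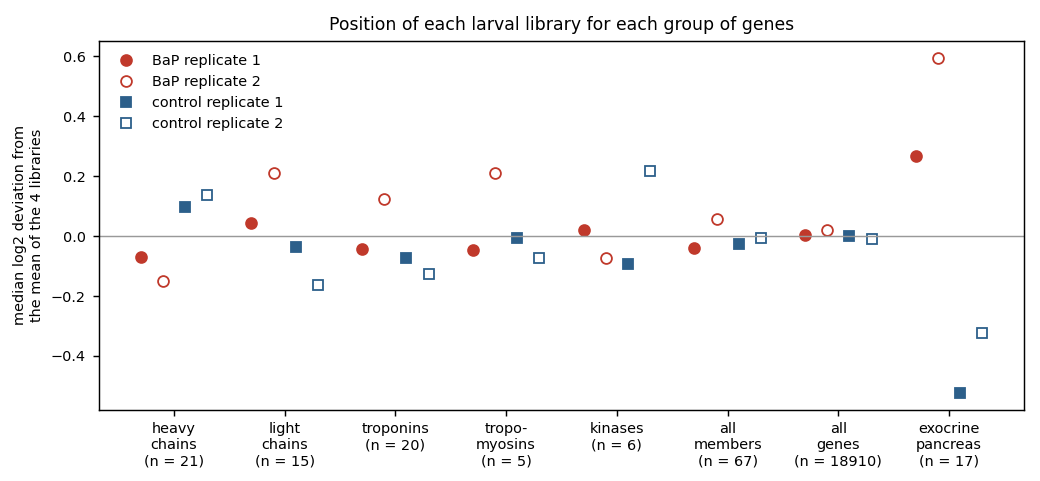
Median log2 deviation of each larval library from the mean of the 4 libraries, for each group of genes (number of genes under its name), with BaP libraries as red circles left of control libraries as blue squares. Both BaP libraries lie below both controls for heavy chains (-0.07 and -0.15 against 0.10 and 0.14) and above them for light chains, troponins and exocrine pancreas genes.

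Sums over genes give 1 value per library for the balance of the parts in reads. The sums are not divided by length, so a ratio is compared only between libraries and does not give a balance of molecules. Fast heavy chains summed to 1.41 and 1.21 times the fast light chains in BaP larvae, against 1.46 and 1.72 times in controls. The log2 ratio differed by -0.27, and the two-sided exact permutation p was 0.333, the smallest that 2 libraries against 2 allow. That difference was -0.16 without control replicate 2, -0.17 without BaP replicate 2, -0.38 without BaP replicate 1, -0.39 without control replicate 1 and -0.45 as a mean over members. Fast heavy chains stood at 2.25 and 1.83 times the fast troponins in BaP larvae, against 2.36 and 2.68 times in controls (log2 difference -0.31, exact permutation p = 0.333). Cardiac heavy chains stood at 3.67 and 3.26 times the cardiac light chain myl7 in BaP larvae, against 4.42 and 4.21 times in controls (log2 difference -0.32, exact permutation p = 0.333). The groups did not overlap in these 3 ratios, as they did not in 50.4% of all genes. The ratios to fast light chains and to fast troponins share the fast heavy chain sum. In the slow class the ratio was 3.41 and 2.39 in BaP larvae and 3.01 and 3.54 in controls, which overlap (log2 difference -0.19, exact permutation p = 0.667).

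Sums by fibre type overlapped between groups, except for slow against fast heavy chains. The sums leave out the 6 genes given no tissue class, MYL4 among them. Those 6 summed to 500 and 544 CPM in BaP larvae and 461 and 455 CPM in controls. The cardiac genes summed to 205 and 223 CPM in BaP larvae and 246 and 213 CPM in controls. The cardiac ratio therefore depends on how the 6 were classed, and it was not recalculated with them. Slow genes summed to 0.0340 and 0.0397 of the fast genes in BaP larvae, against 0.0352 and 0.0359 in controls, with a log2 difference of 0.05 (exact permutation p = 1.0). Cardiac genes summed to 0.00323 and 0.00388 of the fast genes in BaP larvae, against 0.00419 and 0.00376 in controls, with a log2 difference of -0.17 (exact permutation p = 0.667). Slow heavy chains alone were 0.0438 and 0.0491 of fast heavy chains in BaP larvae and 0.0421 and 0.0419 in controls (log2 difference 0.14, exact permutation p = 0.333). Slow troponins were 0.0372 and 0.0446 of fast troponins in BaP larvae, against 0.0426 and 0.0441 in controls (log2 difference -0.09, exact permutation p = 1.0). With 2 libraries a group none of the 8 ratios computed could pass 0.05, before or after adjustment.

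Among fast heavy chains, the motors of trunk muscle, most reads fell on myhz1.1, with 15323 and 12019 CPM in BaP larvae, against 14239 and 15085 CPM in controls. Its groups overlapped (log2 difference -0.11, SE 0.29). The neighbouring gene myhz1.2 had 6941 and 5433 CPM in BaP larvae and 5772 and 6081 CPM in controls, also overlapping, and myhz2 had 4309 and 4145 CPM in BaP larvae, below the 4509 and 4394 CPM of controls (log2 difference -0.07, SE 0.20). Larger differences were found for the fast heavy chains myhb and myhc4. The gene myhb had 215 and 267 CPM in BaP larvae, against 338 and 324 CPM in controls (log2 difference -0.47, SE 0.14, limma adjusted p = 0.226). For myhc4 the values were 75.0 and 60.5 CPM in BaP larvae and 110 and 87.6 CPM in controls (log2 difference -0.54, SE 0.16, limma adjusted p = 0.226). In myhz2, myhb and myhc4 the BaP libraries lay below both controls, as in 24.3% of all genes, without passing the test.

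Single fast heavy chain genes are uncertain, because 6 of the 7 are neighbours of each other in the current reference (GRCz12tu) and are closely alike, and how the authors shared reads between copies is not given in the sources used here. Summed over that cluster (myhz2, myhc4, myha, myhz1.3, myhz1.2 and myhz1.1) the larvae had 29222 and 24017 CPM under BaP, against 27431 and 28668 CPM in controls, so the sum overlapped between groups. The split of myhz1.1 among its transcripts varied from library to library. Its transcript myhz1.1-201 had 3666 and 1084 CPM in BaP larvae and 2002 and 4231 CPM in controls, a range wider within each group than between them, while myhz1.1-001 had 10554 and 10726 CPM in BaP larvae and 11633 and 9588 CPM in controls.

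Of the 3 slow heavy chains, 2 had small differences. The main one of superficial slow fibres, smyhc1, had 1071 and 966 CPM in BaP larvae, against 944 and 969 CPM in controls (log2 difference 0.09, SE 0.14). Its neighbour smyhc2 had 216 and 223 CPM in BaP larvae and 220 and 239 CPM in controls (log2 difference -0.07, SE 0.12). Both overlapped between groups. The third gene of that row, smyhc3, singled out after its values were seen, depended on the annotation. It had 2.44 and 4.62 CPM in BaP larvae and 6.67 and 4.94 CPM in controls in the Ensembl table. In the RefSeq table it had 32.8 and 34.4 CPM in BaP larvae, against 36.8 and 29.1 CPM in controls, and the log2 difference was 0.04 in place of -0.69. Over the 46 members found in both tables the RefSeq value was a median of 1.18 times the Ensembl one.

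All 3 cardiac heavy chains had both BaP libraries below both controls, as had 24.3% of all genes. The ventricular heavy chain vmhc had 107 and 104 CPM in BaP larvae, against 138 and 108 CPM in controls (log2 difference -0.21, SE 0.15, limma adjusted p = 0.496), and BaP replicate 1 came close to control replicate 2. Its relative vmhcl had 31.5 and 37.3 CPM in BaP larvae and 38.3 and 40.5 CPM in controls (log2 difference -0.20, SE 0.15). The atrial heavy chain myh6 had 2.89 and 3.18 CPM in BaP larvae, against 4.10 and 4.38 CPM in controls (log2 difference -0.42, SE 0.25, limma adjusted p = 0.434). The separation of myh6 rests on low CPM.

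Among heavy chains of at least 5 CPM, the largest differences were those of MYH7B (3 of 3) and MYH9 (1 of 2). Read as a nonmuscle heavy chain by its name, MYH9 (1 of 2), which carries the human symbol of nonmuscle myosin IIA, had 115 and 81.7 CPM in BaP larvae, against 133 and 170 CPM in controls (log2 difference -0.63, SE 0.19, limma adjusted p = 0.226). Another gene of that type, myh9a, was on the other side, with 175 and 202 CPM in BaP larvae and 163 and 172 CPM in controls (log2 difference 0.17, SE 0.13). The other nonmuscle heavy chains myh10 and myh14 had both BaP libraries below both controls, as had 24.3% of all genes. For myh10 the values were 130.5 and 124 CPM in BaP larvae and 148 and 151 CPM in controls. For myh14 the means were 29.4 ± 5.17 CPM in BaP larvae and 34.5 ± 0.754 CPM in controls (SD, n = 2 each). The difference of MYH7B (3 of 3) depended on a single library, with 8.46 CPM in BaP replicate 1 and 0.110 CPM in BaP replicate 2, against 9.67 and 11.3 CPM in controls (log2 difference -2.23, SE 0.99, limma adjusted p = 0.325). Without BaP replicate 1 that log2 difference was -4.17, a value that rests on the 0.110 CPM of BaP replicate 2 alone.

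Of the fast light chains, the regulatory chain mylpfa had 8364 and 7974 CPM in BaP larvae, against 7663 and 7001 CPM in controls (log2 difference 0.16, SE 0.23, 95% interval -0.38 to 0.69). The essential chain mylz3 had 8244 and 7569 CPM in BaP larvae and 7279 and 6363 CPM in controls (log2 difference 0.21, SE 0.23). In both the BaP libraries were above both controls, as in the other fast light chains myl1 and mylpfb and in 26.0% of all genes. The slow regulatory chain myl10 overlapped between groups, with 378 and 500 CPM in BaP larvae and 389 and 343 CPM in controls (log2 difference 0.25, SE 0.16). The cardiac regulatory chain myl7 overlapped as well, with 38.5 and 44.3 CPM in BaP larvae and 40.8 and 36.2 CPM in controls (log2 difference 0.10, SE 0.15).

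The light chains with the largest differences were MYL3 and myl9a. MYL3, listed under the human symbol of a ventricular and slow muscle essential chain, had 14.4 and 16.2 CPM in BaP larvae, against 9.42 and 9.97 CPM in controls (log2 difference 0.63, SE 0.18, limma adjusted p = 0.217). The smooth muscle and nonmuscle regulatory chain myl9a had 30.1 and 41.9 CPM in BaP larvae, against 24.1 and 24.0 CPM in controls (log2 difference 0.55, SE 0.18, limma adjusted p = 0.241). In each, BaP larvae were above both controls, as in 26.0% of all genes. The nonmuscle light chains also had positive differences that did not pass the test. The regulatory chain myl12.1 had 384 and 469 CPM in BaP larvae and 371 and 323 CPM in controls, and its close copy myl12.2 had 47.0 and 58.3 CPM in BaP larvae and 45.7 and 39.0 CPM in controls. The essential chain myl6 had 56.5 and 63.3 CPM in BaP larvae, against 50.3 and 49.5 CPM in controls (log2 difference 0.26, SE 0.13).

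Among troponins, the fast troponin I gene tnni2b.2 had the largest positive difference, with 450 and 503 CPM in BaP larvae, against 366 and 342 CPM in controls (log2 difference 0.43, SE 0.13, limma adjusted p = 0.228). It lies next to tnni2b.1 in the current reference, and 4 tnni2a genes form another row of copies, so their single values are uncertain in the same way. The fast troponin T gene tnnt3b had 4944 and 4806 CPM in BaP larvae, against 4401 and 4015 CPM in controls (log2 difference 0.21, SE 0.20). The slow troponin C gene tnnc1b had 237 and 284 CPM in BaP larvae and 222 and 199 CPM in controls (log2 difference 0.30, SE 0.14, limma adjusted p = 0.335). In these 3 genes the BaP libraries were above both controls, as in 26.0% of all genes.

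The slow troponin T genes did not all lie on the same side. The gene tnnt1 had 16.7 and 18.0 CPM in BaP larvae, against 14.4 and 12.9 CPM in controls (log2 difference 0.34, SE 0.17). Its BaP libraries lay above both controls, as in 26.0% of all genes. By contrast tnnt2d, with 120 and 148 CPM in BaP larvae and 135 and 146 CPM in controls, and tnnt2e, with 97.6 and 128 CPM in BaP larvae and 115 and 100.4 CPM in controls, overlapped. Cardiac troponin T, tnnt2a, needed for the heartbeat in zebrafish, had 18.5 and 27.6 CPM in BaP larvae, against 17.8 and 17.3 CPM in controls (log2 difference 0.36, SE 0.21, limma adjusted p = 0.426). Its BaP replicate 1 lay just above the controls and BaP replicate 2 well above them. Cardiac troponin C, tnnc1a, had 6.61 and 7.27 CPM in BaP larvae and 6.53 and 7.32 CPM in controls, with a log2 difference of 0.00 (SE 0.22).

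Tropomyosin genes had the narrowest range, with log2 differences from -0.04 to 0.17. The gene tpm3 had 609 and 728 CPM in BaP larvae, against 612 and 576 CPM in controls. For tpm2 the values were 544 and 602 CPM in BaP larvae and 566 and 533 CPM in controls, and for tpm4b 28.4 and 43.5 CPM in BaP larvae and 35.5 and 36.9 CPM in controls. Those 3 overlapped between groups. The gene tpm1 had 296 and 301 CPM in BaP larvae, against 288 and 293 CPM in controls, a small gap (log2 difference 0.04, SE 0.12). The kinase mylk4 ranged as widely within groups as between them, with 6.29 and 2.46 CPM in BaP larvae and 3.27 and 6.98 CPM in controls. The 30 members outside the rule for naming genes had log2 differences from -0.99 to 0.30, of which 14 were positive and 16 negative, and their smallest limma adjusted p was 0.269.

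The deposited transcript tables split the 67 genes into 130 transcripts in larvae. None of the 130 passed limma with Benjamini-Hochberg adjustment over all 26036 transcripts, where 1 was called, 0.00384%, and 17 of the 130 had an unadjusted p under 0.05, as had 10.7% of all transcripts. The smallest limma adjusted p was 0.344, for tpm3-004, a minor transcript of tpm3. It had 19.1 and 18.7 CPM in BaP larvae, against 8.71 and 8.26 CPM in controls (log2 difference 1.11). The next tropomyosin transcript, tpm1-202, had 63.7 and 75.2 CPM in BaP larvae and 50.3 and 46.7 CPM in controls (log2 difference 0.51, limma adjusted p = 0.449). In tpm3-004 and tpm1-202, chosen after their values were seen, the groups did not overlap, as in 50.4% of all genes. That share was not calculated over transcripts. The genes tpm3 and tpm1 differed by 0.17 and 0.04. The transcript tpm1-201 went the other way (log2 difference -1.39), at 0.289 to 2.56 CPM. Transcripts of other members lay between these 2 by p. Among them were myl6-006 (log2 difference 1.93, limma adjusted p = 0.415) and tnnt3b-201 (log2 difference -0.70, limma adjusted p = 0.442).

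At 3.3 hpf, before any muscle has formed, 17 of the 67 genes were listed among 14236, and the other 50 were not listed. The 17 were 8 of the 10 nonmuscle or smooth muscle genes, all 5 tropomyosins, 2 kinases, and the troponin T genes tnnt2a and tnnt3a. None of the 9 slow genes was listed, and only 1 of the 20 fast and 1 of the 6 cardiac genes. The members took 0.176% to 0.195% of listed reads in BaP embryos and 0.182% to 0.197% in controls. The 2 troponin T genes lay near the listing limit, with tnnt2a at 0.908, 1.80 and 0.268 CPM in BaP embryos against 2.08, 1.87 and 1.2 CPM in controls.

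**Figure D4:**
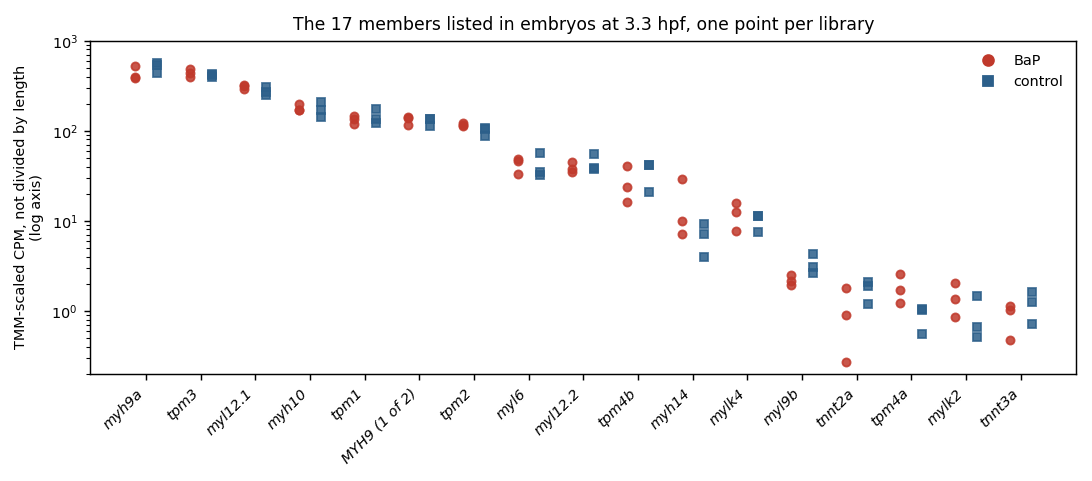
TMM-scaled CPM at 3.3 hpf (log axis, not divided by length) of the 17 members listed in embryos, with BaP libraries as red circles left of control libraries as blue squares (3 each). The groups overlap for 14 of the 17, and tnnt2a, tpm4a, mylk2 and tnnt3a lie near 1 CPM.

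No member passed limma with Benjamini-Hochberg adjustment in embryos, where 0.0% of genes were called (0 of 14236), and the smallest adjusted p among the members was 0.907. At an unadjusted p under 0.05 there were 0 of 17 members, against 4.92% of all genes. Groups did not overlap in 3 of 17 members, against 11.5% of all genes. Those 3 were tpm2 and tpm4a, higher in BaP embryos as were 6.24% of all genes, and myl9b, lower as were 5.3%. The log2 difference was positive for 10 of the 17, against 51.0% of all genes.

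The highest of the embryo members by reads, the nonmuscle heavy chain myh9a, had 529, 393 and 383 CPM in BaP embryos, against 543, 570 and 437 CPM in controls (log2 difference -0.25). The tropomyosin tpm3 had 479, 433 and 397 CPM in BaP embryos and 414, 428 and 393 CPM in controls (log2 difference 0.08). Both overlapped between groups. For the nonmuscle light chain myl12.1 the values were 321, 315 and 291 CPM in BaP embryos and 250, 303 and 270 CPM in controls, and the heavy chain myh10 had 168, 200 and 171 CPM in BaP embryos and 207, 141 and 172 CPM in controls. MYH9 (1 of 2) had 142, 139 and 115 CPM in BaP embryos and 134, 134 and 113 CPM in controls (log2 difference 0.06). In these 3 genes too the groups overlapped.

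Of the other tropomyosins in embryos, tpm2 had 114, 121 and 115 CPM under BaP, above the 107, 88.4 and 103 CPM of controls (log2 difference 0.23). The gene tpm1 had 146, 120 and 135 CPM in BaP embryos and 121, 174 and 135 CPM in controls, and tpm4b had 23.4, 41.0 and 16.2 CPM in BaP embryos and 42.1, 21.0 and 41.7 CPM in controls. Both tpm1 and tpm4b overlapped between groups. Among the remaining light chains, myl12.2 had 34.8, 44.9 and 37.4 CPM in BaP embryos and 54.7, 37.8 and 38.9 CPM in controls, and myl6 had 48.3, 46.0 and 33.4 CPM in BaP embryos and 32.6, 56.4 and 34.4 CPM in controls. The kinase gene mylk4 had 7.63, 12.6 and 15.7 CPM in BaP embryos and 11.2, 7.59 and 11.2 CPM in controls. The heavy chain myh14 had 29.5 CPM in BaP replicate 3, against 7.11 and 9.86 CPM in the other BaP embryos and 9.10, 3.96 and 7.10 CPM in controls (log2 difference 0.95).

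The exposure differences at both ages were compared in 1 fit of all 10 libraries over the 12800 genes listed at both. None of the 17 members passed limma with Benjamini-Hochberg adjustment, where 3 genes were called, 0.0234%, and 1 member, MYH9 (1 of 2), had an unadjusted p under 0.05, against 11.6% of all genes. Its log2 difference was -0.63 in larvae and 0.06 in embryos, which is a difference of -0.69 (SE 0.24, limma adjusted p = 0.344). The heavy chain myh9a stood at 0.17 in larvae and -0.25 in embryos (limma adjusted p = 0.485 for the difference), and tpm2 at 0.06 in larvae and 0.23 in embryos (limma adjusted p = 0.642).

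The shares of transcripts within tpm1, tpm2 and tpm3 were not alike at the 2 ages, while tpm4b had the single transcript tpm4b-201 in every library of both. The transcript tpm2-001 made up 89.1% and 87.9% of tpm2 in BaP larvae and 91.3% and 88.9% in control larvae, and between 1.01% and 3.11% in the 6 embryo libraries. The transcript tpm2-002 made up 8.73% to 12% of tpm2 in larvae and 74.3% to 82.2% in embryos. No embryo library came near a larval one in either.

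Of tpm1, the transcript tpm1-203 made up 73.9% and 71.6% in BaP larvae and 77.2% and 78.3% in control larvae, and it was not listed in embryos. There tpm1-204 was the only tpm1 transcript listed, while in larvae it made up 3.64% to 4.95%. In tpm3, tpm3-001 made up 60.7% to 68.7% in larvae and was not listed in embryos, where tpm3-003 was the only one listed. In larvae tpm3-003 made up 32.4% and 36.7% of tpm3 under BaP, against 31.0% and 29.9% in controls. The tables of the 2 ages were filtered and scaled separately, so no test was made across them, and a transcript under the limit of 1 table can be present below it.

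**Figure D5:**
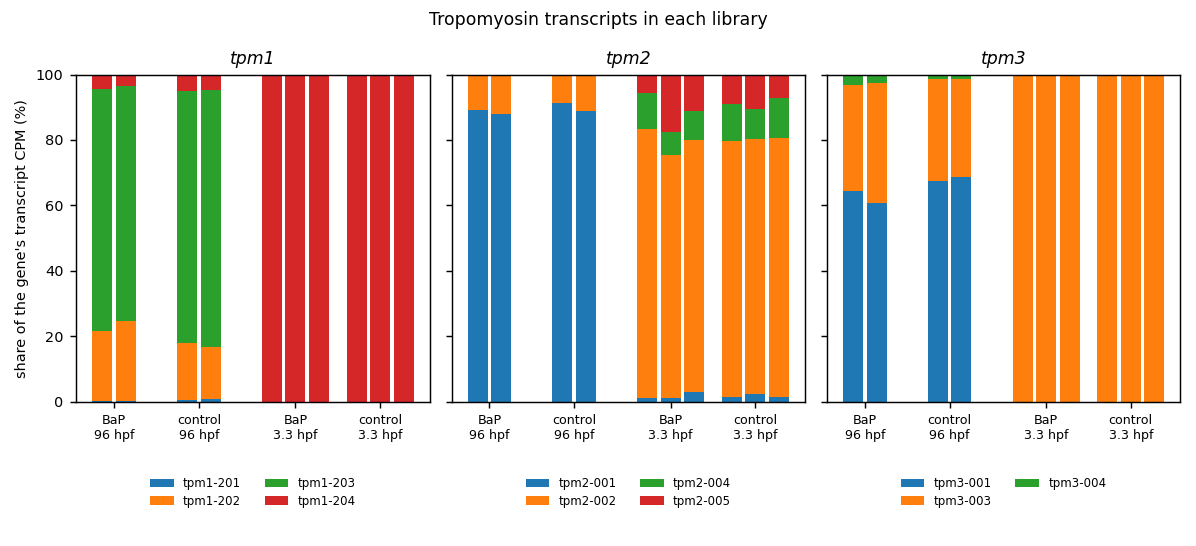
Share of each transcript in the CPM of its tropomyosin gene (stacked bars, percent), 1 bar per library, with larvae left of embryos and BaP left of control within each age. In larvae tpm2-001 is 87.9% to 91.3% of tpm2 and in embryos 1.01% to 3.11%, and in embryos tpm1 and tpm3 each show 1 listed transcript.

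Other genes of the sarcomere and of muscle gave the setting for the members. Of 157 genes on 6 lists, 125 were measured in larvae, 1 was called higher and 0 lower by limma with Benjamini-Hochberg adjustment (0.423% of all genes were called), 23 had an unadjusted p under 0.05 (15.8% of all genes had), and the median log2 difference was 0.03. The called gene was mb, for the oxygen-binding muscle protein myoglobin, with 130 and 133 CPM in BaP larvae, against 62.7 and 52.2 CPM in controls. It rose in BaP larvae by a log2 difference of 1.2 (SE 0.13, limma adjusted p = 0.0135). The call was lost without the trend of the spread on expression, and it did not hold each time 1 library was left out. In the fit of all 10 libraries no gene of the 6 lists was called. That fit did not test mb, as it was not listed in embryos.

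The lists of partner proteins gave no further calls. Of 5 thin filament actins 1 had a positive difference (median -0.18), and skeletal actin acta1a had 433 and 476 CPM in BaP larvae, against 685 and 668 CPM in controls (log2 difference -0.58, SE 0.13, limma adjusted p = 0.162). Smooth muscle actin acta2 was on the other side, with 181 and 216 CPM in BaP larvae and 141 and 155 CPM in controls (log2 difference 0.42, SE 0.14). Myosin binding proteins, which brace the thick filament, were 3 above and 3 below 0 (median -0.06). Of these, the fast-type mybpc2b had 77.5 and 61.0 CPM in BaP larvae, against 109 and 106 CPM in controls (log2 difference -0.64, SE 0.15, limma adjusted p = 0.163). The slow-type mybpc1 had 44.9 and 47.2 CPM in BaP larvae and 57.6 and 57.0 CPM in controls. In each of these 4 genes, named for the smallest p of their lists, the groups did not overlap, as in 50.4% of all genes.

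The list of chaperones and related genes, which takes in smyd and hspb genes, had a positive difference in 8 of 9 (median 0.20). Of all genes 52.2% were positive. The chaperone hsp90aa1.1 had 429 and 375 CPM in BaP larvae, against 209 and 241 CPM in controls (log2 difference 0.84, SE 0.14, limma adjusted p = 0.0582), and its co-chaperone stip1 had 134 and 165 CPM in BaP larvae, against 110 and 116 CPM in controls. Both, named for the smallest p of that list, lay above both controls, as did 26.0% of all genes. The calcium and energy list had 21 of 39 above 0 (median 0.07), and beside mb its next gene was the calcium buffer pvalb9, with 92.4 and 126 CPM in BaP larvae and 71.2 and 73.5 CPM in controls (log2 difference 0.57, limma adjusted p = 0.21). The disc and giant protein list had 25 of 42 above 0 (median 0.03), with the Z-disc protein myoz2a at 57.2 and 67.1 CPM in BaP larvae against 46.5 and 45.7 CPM in controls, and xirp2b at 13.5 and 8.41 CPM in BaP larvae against 14.7 and 22.4 CPM in controls.

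Muscle transcription factors had 13 of 25 above 0 (median 0.01). The differentiation factor myog had 23.2 and 21.4 CPM in BaP larvae, against 15.97 and 12.7 CPM in controls (log2 difference 0.63, SE 0.18, limma adjusted p = 0.213). The factor mef2aa had 11.8 and 10.3 CPM in BaP larvae, against 16.4 and 20.1 CPM in controls (log2 difference -0.69, SE 0.19, limma adjusted p = 0.195). In these 2 genes, named for the smallest p of the list, the groups did not overlap, as in 50.4% of all genes, and pointed opposite ways. In embryos 45 of the 157 genes were measured, and 0 were called by limma with Benjamini-Hochberg adjustment, as were 0.0% of all genes. There 1 had an unadjusted p under 0.05, against 4.92% of all genes. It was the heart and fin factor tbx5a (limma adjusted p = 0.907). It had 0.492 to 2.13 CPM in BaP embryos, against 3.22 to 3.91 CPM in controls.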

How the data were processed

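The authors deposited CPM, in which every column adds up to 1000000, with no division by gene length. The unit comes from the column totals, as the tables are named as counts. Per the submitters' processing notes, the tools were TopHat, Partek and edgeR and the build was Zv9, with neither versions nor roles given. Per the file headers and annotation column, the genes follow Ensembl release 70 or RefSeq. Between 35.0% and 65.2% of the values of a library were whole multiples of its step, within 0.05 reads, so whole reads were not recovered and no count test was run.

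Differences were tested with limma 3.58.1 in R 4.3.3 (trend of the spread on expression) on log2 of TMM-scaled CPM plus 0.5 over all listed genes, with 1 term for the group. The TMM factors, which leave out the outer 30% of log ratios and 5% of levels, were calculated from the deposited values. P-values were adjusted by Benjamini-Hochberg, at a threshold of 0.05. The test was checked on simulated data only with changes larger than those of nearly all members, so smaller differences were not covered by that check. The RefSeq columns at 3.3 hpf show a group but not which library. Rows named tnnt1 in the RefSeq table were matched to tnnt2c, the symbol the current reference gives their transcript.

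The members were taken by symbol, without use of a measured value. That choice and the lists were made with earlier results of these data known. Members named take in the 6 highest of the fast, slow and cardiac classes, the 5 highest and 5 lowest log2 differences among those of at least 5 CPM, and those of at least 10 CPM at 3.3 hpf. Of each other muscle list the 2 genes of smallest p were named. Members named outside this rule (such as smyhc3, tnni1al, tpm4a, myl9b and MYH7B (1 of 3)) and the single transcripts were chosen after their values were seen. Of the 67 members, 54 were found in the current reference by symbol or older name. Gene lengths and promoter sequences were not used here.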

Additional observations from a re-analysis of the deposited data

How the results depend on the processing

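The count of called members stayed at 0 in larvae, in embryos, for the difference between ages and among transcripts under every alternative run, except that larvae gave 0 to 8 members when each library was left out in turn and 8 with a crossed replicate block. Leaving out BaP replicate 1 gave the 8, while all genes called ranged from 2 without the trend to 3223 without BaP replicate 1. With the replicate number as a block, 0 members and 2 other muscle genes passed. Same-numbered larval libraries deviated against each other (correlation -0.26). With 2 libraries a group the opposite pairing must give the same value with its sign reversed (0.26). The correlation therefore cannot show whether the numbers pair the samples. Pairing BaP replicate 1 with control replicate 2, chosen after seeing the data, gave 8 members and 18 other muscle genes, in a fit that called 11.5% of all genes. The count of other muscle genes was 1, with 0 in the trend-free fit and in that of all 10 libraries, and 0 to 17 when each library was left out. The fit of all 10 libraries did not test mb, the gene called in the main fit, as it was not listed in embryos. The log2 ratio of slow to fast genes was -0.012 as a mean over members, and -0.0645 to 0.161 with each library left out. The fast share of member reads was 92.3% in the RefSeq table, which holds fewer members, against 91.0%.

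The directions of these log2 differences turned. On CPM as deposited the larval log2 differences were -0.0406 for myhz1.2, -0.0038 for smyhc1, -0.0337 for tpm2, -0.0559 for tpm1, -0.0353 for tnnt2e and -0.084 for tnnc1a. In the RefSeq table they were -0.0593 for myhz1.2, -0.0058 for tpm2, -0.0108 for tnnt2e and -0.0752 for tnnc1a, while smyhc3 stood at 0.037 in place of -0.69 and tnni2a.3 at 0.080 in place of -0.11. That of tnnc1a was -0.0146 under median-ratio scaling and -0.0287 among genes of at least 5 CPM. With each library left out, the larval range was -0.30 to 0.0642 for myhz1.1, -0.14 to 0.23 for myhz1.2, -0.0141 to 0.12 for tpm2, -0.23 to 0.0604 for tnnt2d, -0.14 to 0.24 for tnnt2e, -0.34 to 0.25 for tpm4b, -0.0746 to 0.0704 for tnnc1a and -0.85 to 0.36 for mylk4. In embryos it was -0.0589 to 0.21 for myh10, -0.0091 to 0.15 for MYH9 (1 of 2), -0.20 to 0.0671 for tpm1, -0.26 to 0.0249 for myl12.2, -0.0602 to 0.34 for myl6 and -0.0048 to 0.49 for mylk4. The cause was not tested. Depth limits the members near 1 CPM, and 2 libraries a group limit all larval tests.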
